A study of Bubalus bubalis with 12 samples.

Results

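The expression of 10 endothelial genes, PECAM1, VWF, CDH5, KDR, TEK, TIE1, EMCN, ENG, CLDN5 and LYVE1, was examined in the ruminal wall of 12 Italian Mediterranean dairy buffaloes. The genes were chosen by symbol as markers of the cells that line blood and lymph vessels, with earlier results of these data known but by no rule on their values, and all 10 were among the 34037 genes of the deposited table. The control group of 6 adult buffaloes received a total mixed ration (TMR), and the treated group of 6 adult buffaloes received TMR in which green ryegrass made up 30% of the diet. A single library of total RNA was made per buffalo from a frozen biopsy of the ruminal wall, whose depth is not given in the sources used here, so each value is a mean over all cell types that the biopsy held. The comparison addresses whether the green feed changed expression in the ruminal wall.

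Endothelial cells line every vessel, and those below the ruminal epithelium carry away the short-chain fatty acids that the epithelium absorbs. PECAM1 and CDH5 are adhesion molecules of the junctions between endothelial cells, and CLDN5 is a claudin of their tight junctions. KDR is the main receptor for VEGF-A, TEK is the receptor for the angiopoietins, TIE1 is its orphan partner, and ENG is a co-receptor for ligands of the TGF-beta family. VWF is the clotting protein that endothelial cells store and release, EMCN is a sialomucin of capillaries and veins, and LYVE1 is the hyaluronan receptor of lymphatic endothelium that some macrophages also carry.

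Values are fragments per kilobase of gene, scaled to the counted fragments of the library (FPKM). Comparisons between genes rest on the gene lengths behind the FPKM, which are not given in the sources used here. Counted fragments ranged from 10531541 to 12948372 per animal. Read numbers were recovered from the FPKM themselves, and 3 reads were taken as the floor below which a gene cannot be told from 0. A total of 16450 genes reached 0.1 FPKM in 6 or more animals and were tested, and all 10 endothelial genes were among them. In a bulk sample, fewer endothelial cells and less RNA per endothelial cell cannot be told apart.

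The endothelial genes were expressed at low to middle levels, and their spread from animal to animal was wide. The mean level of PECAM1 was above that of 59.9% of the genes tested, and that of LYVE1 above 14.9%. PECAM1 was the most abundant, with 7.55 ± 3.60 FPKM (SD, n = 6) in control and 7.55 ± 4.35 FPKM (SD, n = 6) in treated buffaloes, and LYVE1 was the least abundant, with 0.540 ± 0.751 and 0.338 ± 0.361 FPKM. By their mean over 12 animals the genes followed the order PECAM1, VWF, KDR, ENG, CLDN5, TEK, EMCN, CDH5, TIE1 and LYVE1. Of the 9 pairs of neighbours in this order, 5 differed within animals in an exact sign-flip permutation test of log2(FPKM + 0.01), two-sided and adjusted over the 9 pairs. The order was taken from the same values. The test covers the spread between animals and not an error that all animals share, such as one in a gene length.

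**Figure D1:**
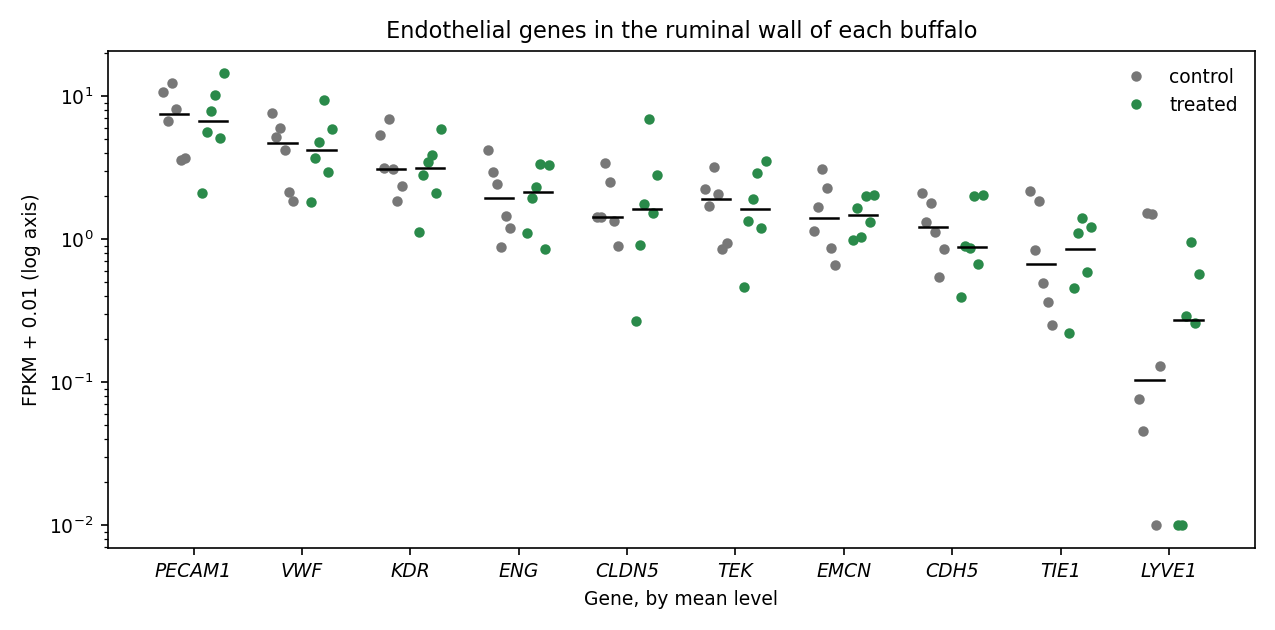
FPKM + 0.01 of each endothelial gene on a log axis, with 1 point per animal (grey, control; green, treated) and a bar at the median of each group. The genes stand in the order of their mean over 12 animals, the groups overlap for all 10 genes, and the 3 LYVE1 points at the bottom are the animals with 0 reads.

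PECAM1 exceeded VWF in 12 of 12 animals, by 0.69 on the log2 scale (adjusted p = 0.00220, exact sign-flip test). KDR exceeded ENG in 12 of 12 animals as well, by 0.72 (adjusted p = 0.00220, exact). VWF was above KDR in 9 of 12 animals (adjusted p = 0.0193), CDH5 above TIE1 in 9 of 12 (adjusted p = 0.0132) and TIE1 above LYVE1 in 11 of 12 (adjusted p = 0.0132), all by the exact test. The order was thus resolved at the top and at the bottom. ENG, CLDN5, TEK, EMCN and CDH5 formed a run of neighbours whose differences stayed within the spread, with adjusted p-values of 0.481, 0.943, 0.424 and 0.0791 in the exact test.

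No difference between treated and control buffaloes was detected for any of the 10 endothelial genes. With limma on log2(FPKM + 0.01), 0 of 10 had an adjusted p below 0.05, against 0.00% of all genes tested, and 0 of 10 had a nominal p below 0.05, against 1.83% of all genes tested (1.02% higher and 0.809% lower in treated buffaloes). The smallest nominal p of an endothelial gene was 0.525 (limma) and the smallest p of the exact permutation test over all assignments of the animals was 0.567. Of the 10 genes, 3 were higher and 7 lower in treated buffaloes, and the groups of all 10 overlapped, while 0.0669% of all genes had groups that did not overlap. The median log2 fold change of treated against control was -0.08 for the 10 genes and 0.0016 for all genes tested.

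Among the junction genes, PECAM1 ranged from 3.58 to 12.3 FPKM in control buffaloes (median 7.48) and from 2.09 to 14.5 FPKM in treated buffaloes (median 6.75). Both the lowest and the highest animal were treated. Its log2 fold change was -0.08 (standard error 0.44, 95% interval -1.03 to 0.87), and the exact permutation p was 0.870. CDH5, the cadherin of endothelial adherens junctions, ranged from 0.538 to 2.09 FPKM (median 1.21) in control and from 0.387 to 2.04 FPKM (median 0.874) in treated animals. The ranges covered each other almost fully, and its log2 fold change was -0.27 (95% interval -1.22 to 0.69, exact permutation p = 0.571). CLDN5 ranged from 0.885 to 3.42 FPKM (median 1.43) in control and from 0.260 to 6.95 FPKM (median 1.63) in treated animals. Its treated range held the control range within it, from 4 reads in treated animal 1 to 108 reads in treated animal 4, and the log2 fold change was -0.12 (95% interval -1.47 to 1.23, exact permutation p = 0.872).

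The growth factor receptors also overlapped between the groups. KDR, the main VEGF receptor of blood vessels, ranged from 1.85 to 6.89 FPKM in control (median 3.12) and from 1.12 to 5.94 FPKM in treated buffaloes (median 3.14). Its medians were nearly equal, and its log2 fold change of -0.26 (95% interval -1.13 to 0.60) had an exact permutation p of 0.567. TEK ranged from 0.840 to 3.22 FPKM (median 1.89) in control and from 0.457 to 3.54 FPKM (median 1.61) in treated buffaloes, with a log2 fold change of -0.09 (95% interval -1.11 to 0.94). TIE1, which pairs with TEK, ranged from 0.242 to 2.17 FPKM (median 0.657) in control and from 0.213 to 1.39 FPKM (median 0.841) in treated animals, with a log2 fold change of -0.07 (95% interval -1.38 to 1.24). ENG ranged from 0.875 to 4.21 FPKM (median 1.94) in control and from 0.852 to 3.35 FPKM (median 2.13) in treated buffaloes. The control and treated ranges of these receptors lay over each other, and for ENG the log2 fold change was 0.01 (95% interval -0.94 to 0.95, exact permutation p = 0.985).

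VWF, the secreted clotting factor, ranged from 1.86 to 7.67 FPKM (median 4.67) in control and from 1.83 to 9.35 FPKM (median 4.24) in treated animals. It was 0.07 higher on the log2 scale in treated buffaloes, with a 95% interval from -0.84 to 0.98 and an exact permutation p of 0.892. EMCN ranged from 0.647 to 3.11 FPKM (median 1.40) in control and from 0.983 to 2.04 FPKM (median 1.48) in treated buffaloes. It was the gene with the narrowest interval, from -0.77 to 0.85 around a log2 fold change of 0.04. LYVE1, the lymphatic marker, ranged from 0 to 1.53 FPKM (median 0.0934) in control and from 0 to 0.941 FPKM (median 0.264) in treated animals. It had 0 reads in control animal 5 and in treated animals 1 and 2, where a count of 0 allows up to about 0.1 FPKM, and 47 and 45 reads in control animals 3 and 4. Its log2 fold change of -0.23 had a 95% interval whose lower end was -3.46, the widest of the intervals, which makes it the least determined of the 10 genes.

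**Figure D2:**
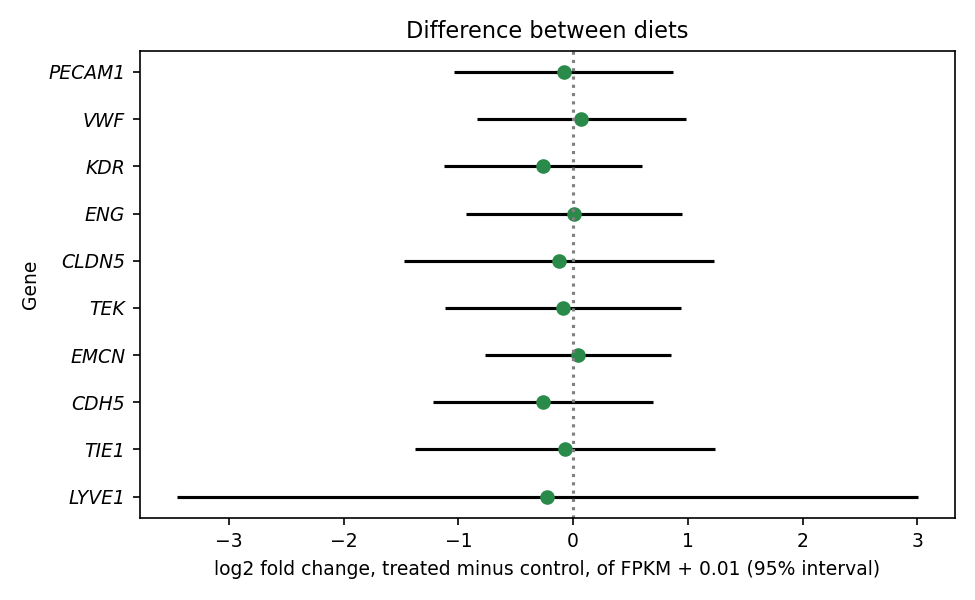
Log2 fold change of treated minus control, on log2(FPKM + 0.01), for each endothelial gene (point) with its 95% interval from limma (line) over 6 control and 6 treated buffaloes. All 10 intervals cover 0, and that of LYVE1 is the widest, with a lower end of -3.46.

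The intervals set what could be seen. For PECAM1 the interval corresponds to a fold between 0.488 and 1.83, so that a larger change in either direction lies outside it. Sums of 12 smooth muscle genes were between 33.4 and 61.4 FPKM in control and between 22.0 and 48.3 FPKM in treated animals, and all 12 of these genes were lower in treated buffaloes, 3 of them at a nominal p below 0.05 in limma, against 0.809% of all genes tested that were lower at this threshold. Likewise 12 of 12 tested fibroblast genes were lower, with a median log2 fold change of -0.59 and 0 at a nominal p below 0.05. With a score of these 24 genes as a covariate, the log2 fold changes of all 10 endothelial genes were positive, between 0.19 for EMCN and 1.85 for LYVE1, and their smallest p was 0.142 (limma). The direction of the diet difference of the endothelial genes therefore turned with this setting for 7 genes, and 0 of 10 were called under either.

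The spread between animals of 1 group was larger than the diet difference for every endothelial gene. The SD of log2(FPKM + 0.01) within groups had a median of 0.85 over the 10 genes and of 0.45 over all genes tested. For PECAM1 it was 0.87, larger than for 95.1% of the 4852 genes of like level, and for EMCN it was 0.69, larger than for 63.8% of the genes of like level. Counting error was a small part of this spread for the abundant genes. With 86 to 634 reads per animal, counting alone would give PECAM1 an SD of 0.095 on the log2 scale, while CLDN5, with 4 to 108 reads, would have a counting SD of 0.35 against a measured 1.22.

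The animals that were low or high were mostly the same for each of these genes. Treated animal 1 was the lowest of 12 for 7 genes, PECAM1, VWF, CDH5, KDR, TEK, TIE1 and CLDN5, and among the 3 lowest for all 10. Its summed level over the 10 genes was 8.43 FPKM. Control animals 5 and 6 had sums of 12.9 and 12.8 FPKM and were among the 3 lowest for 8 and 6 genes. At the other end, treated animal 4 had a sum of 42.9 FPKM, control animal 3 of 42.5 FPKM and treated animal 6 of 41.9 FPKM, and each of these animals was above the median of the 12 for all 10 genes. High and low animals were thus found in both groups.

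**Figure D3:**
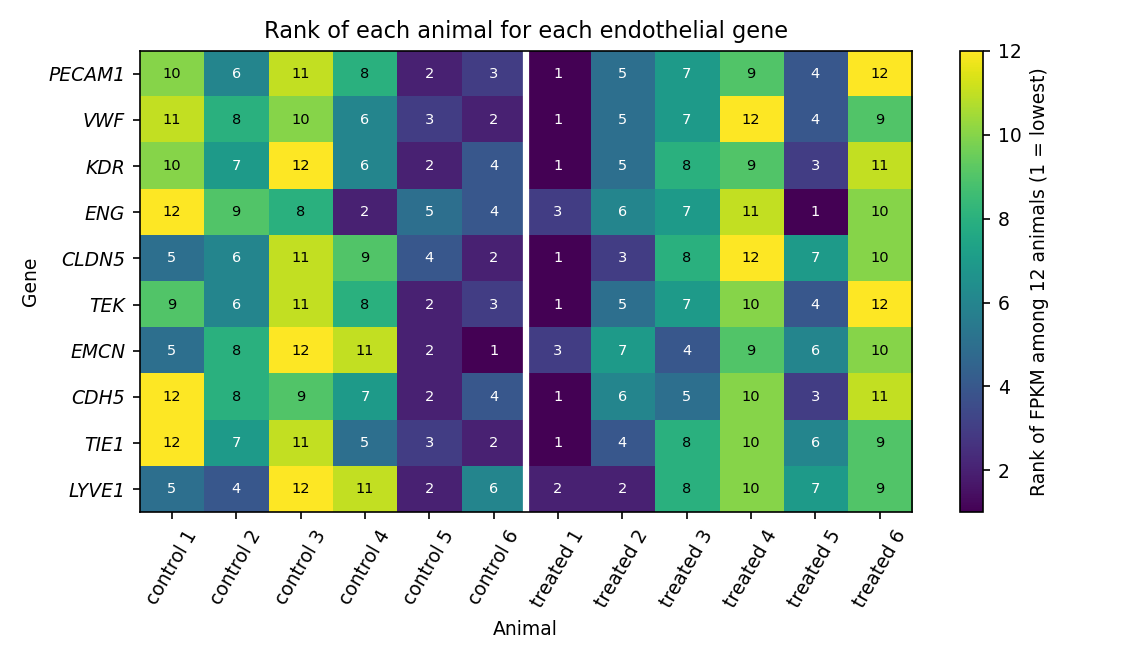
Rank of each animal for each endothelial gene (1, lowest FPKM of 12 animals; 12, highest; ties share a rank), with the 6 control animals left and the 6 treated animals right of the white line. Treated animal 1 holds rank 1 for 7 genes, and control animal 3 and treated animals 4 and 6 are above the median for all 10.

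Across the 12 animals the endothelial genes varied together. Of the 45 pairs, 39 had a Pearson correlation with an adjusted p below 0.05 and 38 a Spearman correlation with an adjusted p below 0.05 (permutation test with 100000 resamples, two-sided, adjusted over the 45 pairs). The share of pairs of other genes that would pass was not computed, so how unusual this count is remains unknown. All 45 coefficients were positive, with a median r of 0.76 and a median rho of 0.78. After subtraction of the group means, 37 pairs had an adjusted p below 0.05. The median r was 0.73 within control and 0.87 within treated animals. Without treated animal 1, which was low for all 10 genes, the median r was 0.71 and the lowest r was -0.011. In that setting 27 pairs had an adjusted p below 0.05.

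**Figure D4:**
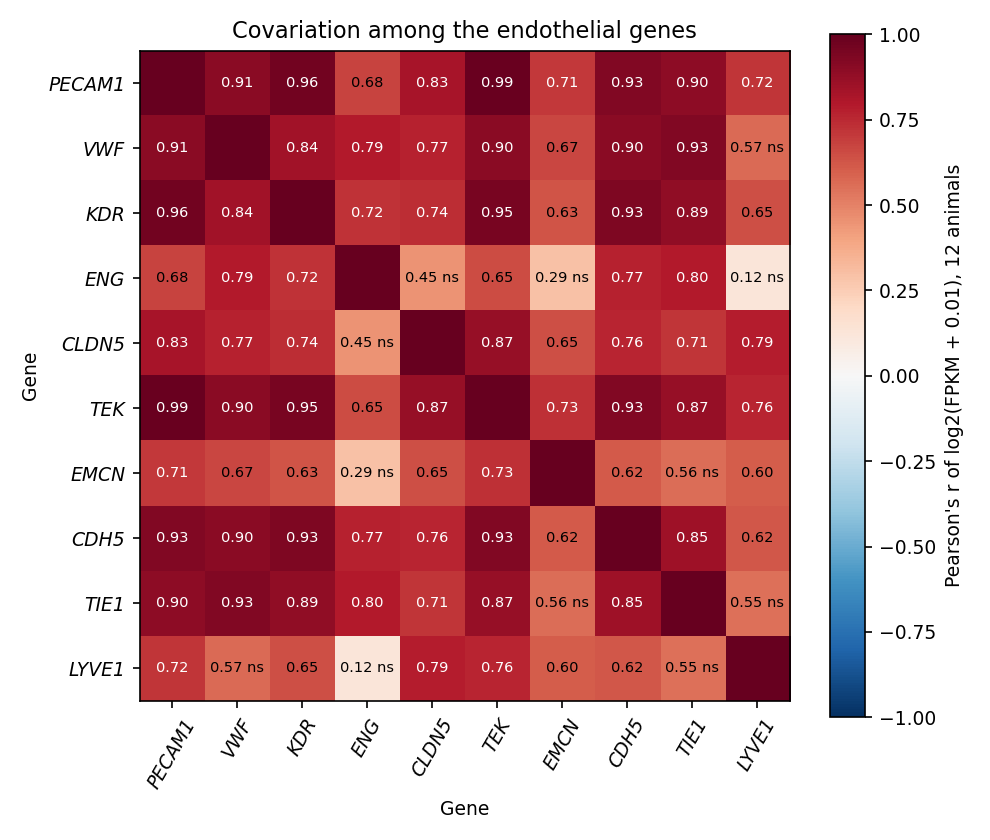
Pearson's r of log2(FPKM + 0.01) over 12 animals for each pair of endothelial genes, with blue to red for -1 to 1, genes in the order of their mean level, and ns for pairs with an adjusted p of 0.05 or more. PECAM1 and TEK have the highest value, 0.99, and 5 of the 6 pairs marked ns hold ENG or LYVE1 or both.

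The closest of the 45 pairs was PECAM1 and TEK, an adhesion molecule and a growth factor receptor. Their r was 0.992 and their rho 0.993 (adjusted permutation p = 0.000112 and 0.000225). Before adjustment each permutation p was 1e-05, the smallest that the resamples can give. The relation held without the 2 animals farthest from the median of PECAM1 (r = 0.982), within control (r = 0.987) and within treated animals (r = 0.996). TEK stood between 0.208 and 0.285 of the PECAM1 level in every animal, and the SD of this ratio was 0.12 on the log2 scale. Counting error alone would give the 26 to 214 TEK reads an SD of 0.17. The ratio of KDR to PECAM1 ranged from 0.375 to 0.639, and KDR correlated with PECAM1 at r = 0.961 (adjusted permutation p = 0.000112).

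PECAM1, VWF, CDH5, KDR, TEK and TIE1 were tied to each other in all 15 of their pairs. Their lowest r was 0.84, their median r was 0.91, and the lowest value within control animals was 0.84 and within treated animals 0.87. Without the 2 farthest animals the lowest r of these 15 pairs was 0.76, and without treated animal 1 it was 0.79. These 6 genes span adhesion, clotting and growth factor reception. The group of 6 was not set in advance, so its values describe a part of the 45 pairs and are no separate test. CLDN5 correlated with the other 9 genes at a median r of 0.76.

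EMCN, ENG and LYVE1 had the lowest coefficients, with a median r of 0.63, 0.68 and 0.62 to the other 9 genes. EMCN and ENG gave r = 0.292 (adjusted permutation p = 0.362). ENG correlated with TIE1 at r = 0.796 (adjusted permutation p = 0.00661), with LYVE1 at r = 0.123 (adjusted permutation p = 0.695) and with CLDN5 at r = 0.447 (adjusted permutation p = 0.154). For ENG and LYVE1 the coefficient was -0.25 within control and 0.51 within treated animals, and 0.53 without the 2 farthest animals. The remaining pairs that missed the threshold, with an adjusted permutation p above 0.05, were VWF and LYVE1, TIE1 and EMCN, and TIE1 and LYVE1. Their r lay between 0.55 and 0.57. The ratio of ENG to PECAM1 ranged from 0.107 in control animal 4 to 0.525 in treated animal 1, whereas that of EMCN ranged from 0.106 in control animal 1 to 0.471 in treated animal 1. Both highest ratios were in treated animal 1, the animal that was lowest for 7 of the genes. Whether the closeness of 2 pairs differed was not tested.

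LYVE1 varied with several genes of the lymphatic list, and also with CLDN5 (r = 0.789, rho = 0.873) and TEK (r = 0.760) of the 10 endothelial genes. In 6 of 12 animals LYVE1 had 3 reads or fewer. Of 7 tested genes on the lymphatic list, MMRN1, a secreted multimerin of lymphatic endothelium, followed it most closely, with r = 0.935 and rho = 0.937 (adjusted permutation p = 0.000450 and 0.000150). This and the next partner pairs were chosen after the data were seen, and p-values were adjusted over the 15 pairs computed. MMRN1 ranged from 0.340 to 9.49 FPKM (median 1.03) in control and from 0.130 to 7.16 FPKM (median 1.91) in treated animals. The r without the 2 animals farthest in LYVE1 was 0.891, and within groups it was 0.943 in control and 0.946 in treated animals. RELN, the secreted reelin of lymphatic endothelium, gave r = 0.926, FLT4, the VEGF-C receptor, r = 0.813, STAB1, a scavenger receptor also found on macrophages, r = 0.783, and CCL21, the chemokine that guides leukocytes into lymph, r = 0.757, each with an adjusted permutation p between 0.000450 and 0.0101. PDPN passed by rank (rho = 0.669, adjusted permutation p = 0.0279) but not by Pearson correlation (r = 0.506, adjusted permutation p = 0.106), and VEGFC passed by neither (r = 0.581, rho = 0.606). PROX1, STAB2 and FOXC2 of the same list were too low to be tested. The lymphatic genes were not tied to LYVE1 alone. The median r with the endothelial genes was 0.866 for STAB1, above its r with LYVE1, and 0.678 for MMRN1, below its r with LYVE1. Whether these coefficients differed was not tested.

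Of the ligands of TEK and KDR, ANGPT2 varied with its receptor past the threshold. TEK correlated with ANGPT2, the angiopoietin that endothelial cells make, at r = 0.843 and rho = 0.846 (adjusted permutation p = 0.00206 and 0.00375), with 0.738 without the 2 farthest animals. With ANGPT1, the angiopoietin of the surrounding mural cells, r was 0.422 (adjusted permutation p = 0.184), and it was -0.28 within control and 0.82 within treated animals. The relation of ANGPT2 was not particular to TEK. Its rho with each of the 10 endothelial genes, after subtraction of group means, lay between 0.538 and 0.923, with a mean of 0.803. ANGPT2 stood at 1.51 ± 0.874 FPKM (SD, n = 6) in control and 0.977 ± 0.942 FPKM (SD, n = 6) in treated buffaloes. VEGFA, the ligand of KDR, was far more abundant, at 18.6 ± 3.38 and 20.1 ± 6.15 FPKM, and its r with KDR was 0.163 (adjusted permutation p = 0.613).

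Partners that endothelial cells carry themselves varied with the receptors, and with the other endothelial genes as well. NRP1, the co-receptor of KDR, correlated with KDR at r = 0.774 (adjusted permutation p = 0.00681), although without the 2 farthest animals r was 0.496. PTPRB, the phosphatase that acts on TEK and CDH5, gave r = 0.826 with TEK and 0.872 with CDH5 (adjusted permutation p = 0.00249 and 0.00105). ACVRL1, the receptor that ENG assists, gave r = 0.687 and rho = 0.783 with ENG (adjusted permutation p = 0.0192 and 0.00653).

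Over all genes tested, the pattern of the 10 endothelial genes was most like that of MMRN2, an endothelial matrix glycoprotein, with a mean Spearman's rho of 0.856 to the 10 genes over the 12 animals after subtraction of group means. ANGPTL2, a secreted angiopoietin-like protein, followed at 0.846, CYYR1 at 0.843, ACVRL1 at 0.841 and CH25H, the cholesterol 25-hydroxylase, at 0.840. The mean levels of these genes lay within the range of the 10 endothelial genes. MMRN2, for instance, had 1.94 ± 0.922 FPKM (SD, n = 6) in control and 2.00 ± 1.28 FPKM (SD, n = 6) in treated buffaloes. The median mean rho of the 16440 genes outside the 10 was -0.02, and 1112 of them lay above 0.5. None of the 16440 genes had a higher mean rho than PECAM1 or TEK had with the other endothelial genes, while 493 exceeded ENG and 429 exceeded LYVE1.

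Genes of other endothelial lists resembled the 10 genes to different degrees. Of 17 junction and surface genes, 11 had a mean rho above 0.5 with the 10 genes, and of 16 other receptors 10 did, among them ACVRL1 and CD34. The lymphatic list had 6 of 7 genes above 0.5, with STAB1 highest at 0.794. Of 15 transcription factors 6 lay above 0.5, with the shear-responsive factor KLF2 highest at 0.779 and FOXO1 lowest at -0.61. The ligand list had a median of 0.00, with only ANGPT2 and VEGFC above 0.5. The transcription factors had a median of 0.26 and the Notch genes of 0.45. For the markers of other cell types the median was 0.52 for fibroblasts, 0.32 for smooth muscle and 0.27 for pericytes. It was -0.12 for leukocytes and -0.35 for epithelium. The adipocyte list had a median of 0.46 on only 2 tested genes, FABP4 and CIDEC, while its ADIPOQ and LEP were at 0 in all 12 animals.

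**Figure D5:**
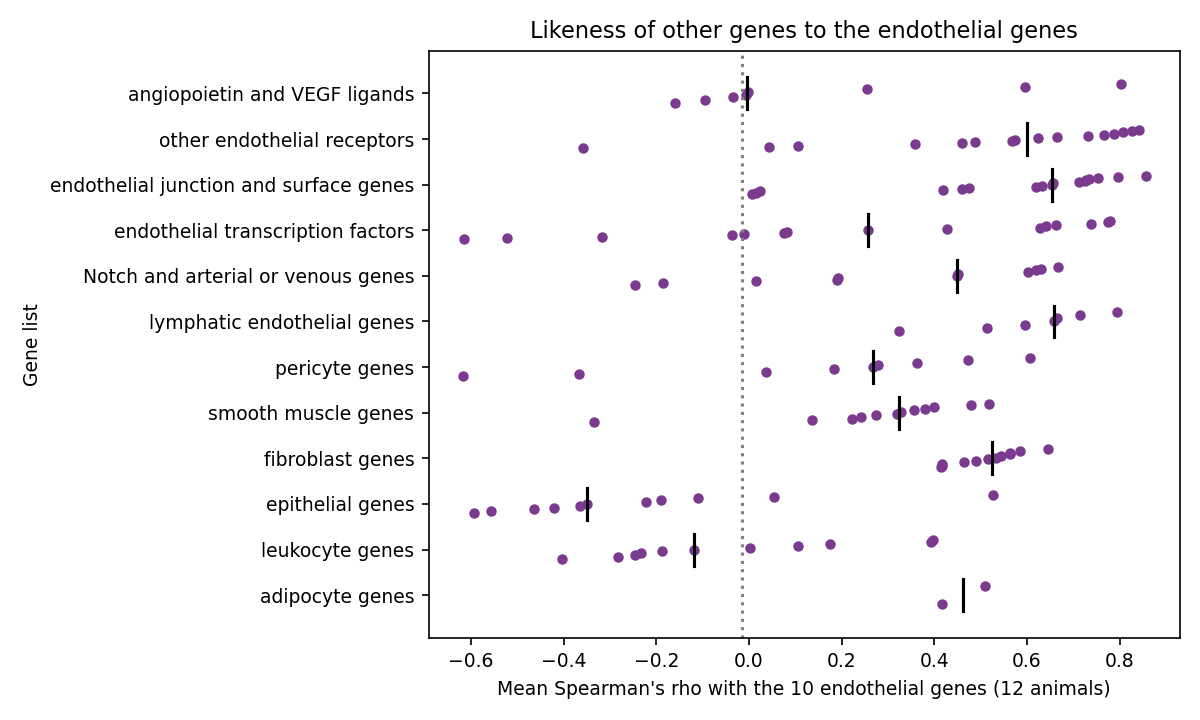
Mean Spearman's rho of each tested list gene with the 10 endothelial genes over 12 animals, group means subtracted, with 1 point per gene, a bar at the list median and a dotted line at the median of all genes (-0.02). Junction and surface, receptor, lymphatic and fibroblast genes have medians above 0.5, and the epithelial median is -0.35.

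The vessel lists likewise held no gene past the adjusted threshold between the diets. Of 87 genes found on the lists of ligands, receptors, junction and surface genes, transcription factors, Notch genes, lymphatic genes and pericyte genes, 81 were tested, and 0 had an adjusted p below 0.05 in limma. A nominal p below 0.05 was seen for 2 of 81 (2.47%, against 1.83% of all genes tested), and both were lower in treated buffaloes. Of the 81, 34 were higher and 47 lower, with a median log2 fold change of -0.03. By list, 3 of 8 ligands, 5 of 16 receptors, 9 of 17 junction and surface genes, 8 of 15 transcription factors, 5 of 11 Notch genes, 1 of 7 lymphatic genes and 3 of 9 pericyte genes were higher, with 0 of them at a nominal p below 0.05.

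The 2 genes were ETV2, a transcription factor that specifies endothelium in the embryo, and NDUFA4L2, a mitochondrial protein found in pericytes. ETV2 ranged from 0.527 to 0.905 FPKM (median 0.696) in control and from 0.0768 to 1.08 FPKM (median 0.335) in treated animals, on 1 to 14 reads. Its highest animal was treated, and its log2 fold change was -1.31 (standard error 0.57), with an exact permutation p of 0.0476. NDUFA4L2 ranged from 0.251 to 0.506 FPKM (median 0.328) in control and from 0.0376 to 0.342 FPKM (median 0.0924) in treated animals, again on 1 to 14 reads. Its log2 fold change was -1.78 (standard error 0.53), with an exact permutation p of 0.00866. These sizes depended on the pseudocount, with -0.97 for ETV2 and -1.13 for NDUFA4L2 at a pseudocount of 0.1 and -0.31 and -0.28 at a pseudocount of 1. Neither passed the adjusted threshold in limma, with an adjusted p of 1.00 for each, and neither resembled the 10 genes across animals, with a mean rho of 0.08 and -0.37. ETV2 lost its nominal call when control animal 1, 3, 4 or 5 or treated animal 2 or 5 was left out, with log2 fold changes between -1.32 and -0.97.

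The most abundant genes of the lists had small differences between the diets. EPAS1, the hypoxia-responsive factor that epithelium also expresses, stood at 119 ± 20.5 and 129 ± 30.2 FPKM (SD, n = 6 each), with a log2 fold change of 0.10. CAV1, the caveolar protein, stood at 6.77 ± 2.79 and 8.12 ± 4.30 FPKM, with a log2 fold change of 0.19 (exact permutation p = 0.606). With the smooth muscle and fibroblast score as a covariate, the value for CAV1 was 0.70 and passed the nominal threshold of limma. For VEGFA, ANGPTL4, BMPR2, RAMP2, PROCR, KLF4, JAG1, NOTCH1, MMRN1, STAB1, CSPG4 and NOTCH3 the log2 fold changes lay between -0.24 and 0.07.

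Other cell types of the wall did not track the endothelial genes past the threshold. Over the 60 pairs of an endothelial gene with the summed level of smooth muscle, fibroblast, epithelial, leukocyte, pericyte or adipocyte genes, 0 had an adjusted permutation p below 0.05 by Pearson or by Spearman correlation, and 7 had a nominal p below 0.05 by each. Which pairs these were depended on the measure. By Spearman correlation they were PECAM1, KDR, TEK and LYVE1 with the epithelial sum, all negative (rho from -0.655 to -0.629). The others were CLDN5 and LYVE1 with the adipocyte sum, and LYVE1 with the fibroblast sum. Of the 7 by Pearson correlation, 6 were with the fibroblast sum, for which r ranged from 0.18 to 0.75 with a median of 0.59. This median was 0.18 within control and 0.83 within treated animals, and 0.30 without the 2 farthest animals. LYVE1 had the highest value, r = 0.752 (permutation p adjusted over the 60 pairs = 0.288). For the epithelial sum r ranged from -0.56 to -0.08, with a median of 0.16 within control and -0.72 within treated animals. Without the 2 farthest animals the epithelial median was -0.61.

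The animals at the ends of the range can be set beside these sums. Treated animal 1, lowest for 7 endothelial genes, had the lowest fibroblast sum, 25.3 FPKM, and the highest epithelial sum, 5407 FPKM. Treated animal 6, with an endothelial sum of 41.9 FPKM, had the lowest epithelial sum, 2676 FPKM, but control animal 6, with an endothelial sum of only 12.8 FPKM, had the next lowest, 2818 FPKM, and a fibroblast sum of 241 FPKM. The part of the layers sampled in the endothelial levels was not tested. Of the blood and platelet list, ITGA2B alone was tested, with 0.285 ± 0.108 and 0.411 ± 0.126 FPKM (SD, n = 6 each). ALAS2, SLC4A1 and GP9 were at 0 in all 12 animals. Of the adipocyte list, ADIPOQ and LEP were at 0 in all 12 animals as well. FABP4, at 37.7 to 246 FPKM, made up nearly all of the adipocyte sum, so this sum is in effect the level of 1 gene.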

How the data were processed

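Total RNA of the ruminal wall was sequenced from 6 control and 6 treated buffaloes, with animals numbered as in the sample descriptions. The sample titles carry other numbers for 7 of the 12 animals, control animal 6 and all treated animals. Per the submitters' notes and methods, reads were checked with FastQC 0.11.5, trimmed with Trimmomatic 0.39, aligned with STAR 2.5.2b to UOA_WB_1 and counted with featureCounts 2.0.0 with regard to strand. The authors deposited FPKM for 34037 genes, of which 11065 were at 0 in all 12 animals. The tool and gene lengths behind the FPKM are not given in the sources used here. Of 16 columns, 12 matched a sample label and 4 were not used. Gene IDs were matched to RefSeq names of another build, NDDB_SH_1, where 10 of 10 had the same symbol, and no coordinates or sequences are given.

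Reads per gene were worked out from the FPKM alone. All 22972 genes above 0 gave whole reads within 0.01, and 20144 of 20168 genes with reads in 3 or more animals gave a length within 0.02 of whole bases. Intervals and floors from reads cover counting error only. The main test was limma 3.58.1 in R 4.3.3 (lmFit, eBayes with trend) on log2(FPKM + 0.01). P-values were adjusted by Benjamini-Hochberg across 16450 genes. The size of fold changes of low genes on this scale depends on the pseudocount. The nominal threshold of 0.05 was counted beside the adjusted one, since the study used it. Single genes were tested with a two-sided exact permutation test, whose smallest possible p is 0.00216. Python 3.11.15, numpy 2.4.6 and scipy 1.17.1 were used for the rest. The scripts were tested on simulated data.

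Genes named were the 10 endothelial genes, from each vessel list the genes at a nominal p below 0.05 and the 2 with the highest mean, from each other cell type list the gene with the highest mean, and the 5 genes most like the 10 by mean rho. Genes named beyond this rule, such as list genes with extreme likeness and the partners of the receptors, were added once values had been seen. The endothelial genes and lists were chosen with earlier results of these data known.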

Additional observations from a re-analysis of the deposited data

How the results depend on the processing

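For the 10 endothelial genes, 218 values were recomputed under other pseudocounts, filters, scalings, voom on the reads, robust eBayes, the block, the covariate and without each animal in turn. None of the 218 had a nominal p below 0.05 in limma, and 42 had the other sign, with each of the 10 genes changing sign in at least 1 of them. With the covariate, log2 fold changes of the other sign were 0.44 for PECAM1, 0.25 for CDH5, 0.20 for KDR, 0.48 for TEK, 0.64 for TIE1, 0.79 for CLDN5 and 1.85 for LYVE1, and, of the list genes, -0.10 for VEGFA, -0.016 for EPAS1, -0.22 for KLF4, 1.51 for MMRN1, 0.43 for STAB1 and -0.31 for NOTCH3. A pseudocount of 1 gave -0.011 for EMCN, 0.052 for CLDN5 and 0.053 for MMRN1, and voom gave -0.0061 for KLF4. Without 1 animal, the sign of 19 genes turned, with ranges of -0.32 to 0.24 for PECAM1, -0.16 to 0.31 for VWF, -0.47 to 0.0066 for KDR, -0.32 to 0.26 for TEK, -0.38 to 0.26 for TIE1, -0.18 to 0.27 for EMCN, -0.21 to 0.24 for ENG, -0.56 to 0.38 for CLDN5 and -1.003 to 0.51 for LYVE1. For list genes they were -0.070 to 0.076 for BMPR2, -0.43 to 0.31 for CSPG4, -0.10 to 0.10 for JAG1, -0.29 to 0.32 for KLF4, -0.74 to 0.40 for MMRN1, -0.17 to 0.30 for NOTCH1, -0.11 to 0.30 for NOTCH3, -0.010 to 0.13 for PROCR, -0.18 to 0.16 for STAB1 and -0.036 to 0.21 for VEGFA. None of these was called, and the cause was not tested. TIE1 and LYVE1 fell below a filter of 1 FPKM in 6 animals and had no value there. The number of all genes with a nominal p below 0.05, 301, was 562 with all genes above 0, 151 with at least 1 FPKM in 6 animals, 494 with the smooth muscle and fibroblast score as covariate, 295 with voom on the reads, and between 283 and 465 without 1 animal, the highest without treated animal 6. The number with an adjusted p below 0.05 was 0 in each of these. For the 81 vessel list genes the 2 nominal calls were 0 with at least 1 FPKM in 6 animals, 6 with the covariate, 6 without treated animal 6, 1 without control animal 1, 3 or 4 or treated animal 2 or 5, and so between 1 and 6 without 1 animal. Covariation among the endothelial genes gave between 37 and 39 pairs under other settings and between 27 and 41 without 1 animal, the lowest without treated animal 1. The order of levels gave 5 or 6 resolved neighbours.

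The same label number stands for different animals in each group. Deviations of same-numbered animals correlated at -0.03 to 0.22, with a mean of 0.092 against -0.02 for other pairs. Of the 6 pairs 3 were above 0.1, and 6 of 12 animals correlated best with their own number, a hint from the data that same-numbered animals are more alike. The numbers were not used as pairs, since the labels tie them to nothing shared and not every pair was above 0.1. By the numbers of the titles, a check added after the data were seen, 1 of 4 pairs was above 0.1, with a mean of 0.026. In the fit that holds the replicate block, 464 genes had a nominal p below 0.05, and 0 of the 10 endothelial genes did. FPKM depth limits LYVE1 most, with 3 reads or fewer in 6 animals.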

Other observations

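Among the genes most like the 10 endothelial genes across the 12 animals were 2 genes of mitochondrial translation, named here after their values were seen. MRPL46, a protein of the mitochondrial ribosome, was the sixth of 16440 genes, with a mean rho of 0.837, at 19.6 ± 2.64 FPKM (SD, n = 6) in control and 22.9 ± 4.41 FPKM (SD, n = 6) in treated buffaloes. MTIF2, a mitochondrial initiation factor, had a mean rho of 0.818, at 5.14 ± 0.434 and 5.24 ± 0.607 FPKM. Both are expressed in all cell types, and their spread between animals was narrow beside that of PECAM1. The 20 genes with the highest mean rho also held ADGRF5 and PODXL, surface proteins of endothelial cells, at 0.833 and 0.828, and CD34, S1PR1, ANGPT2 and ECSCR of the vessel lists. NOTCH3, a receptor of pericytes and smooth muscle, had a mean rho of -0.62 with the 10 endothelial genes. Its level was 3.64 ± 1.14 FPKM (SD, n = 6) in control and 3.95 ± 1.59 FPKM (SD, n = 6) in treated animals. It was the lowest of the 9 tested pericyte genes and did not stand for them. Of these 9, only 2 had a mean rho below 0, the median was 0.27, and ABCC9 was highest at 0.61.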
